A study of Mus musculus with 31 samples.

Results

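The interferon-inducible GTPases of the mouse described here are 10 genes of 2 families. Irgm1, Irgm2, Igtp, Iigp1 and Tgtp1 are immunity-related GTPases (IRG), and Gbp2, Gbp3, Gbp6, Gbp7 and Gbp9 are guanylate-binding proteins (GBP). They were taken as a fixed list of symbols and matched to the Ensembl identifiers of the count tables through the GENCODE annotation. The list was chosen with earlier results of these data known, so its counts against all genes are descriptions and not independent tests. Of the 10 genes, 9 had a value among the 35275 genes counted in the insulin experiment, where Gbp6 was not counted under its identifier. All 10 had a value among the 54532 genes counted in the ERRα3SA experiment. Every listed gene with a value passed edgeR's filter on low counts in each comparison it entered, which is 9 genes in the insulin experiment and 10 in the ERRα3SA experiment.

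RNA of whole tissue was sequenced from 31 samples of mice that differ in ERRα, a nuclear receptor of energy metabolism encoded by Esrra. The first experiment asks how hepatic transcripts respond to insulin with and without ERRα, and the second how a form of ERRα that lacks 3 phosphorylated serines alters liver and muscle. All mice were male, of the strain C57BL/6N, 2 to 3 months old and on a standard diet.

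The insulin experiment has 4 groups of livers, all from mice fasted for 12 h and collected 4 h after an intraperitoneal injection. WT mice received saline (n = 4) or 1 unit of insulin per kg (n = 4). ERRα-/- mice, which lack Esrra in the whole body from conception, received saline (n = 4) or the same dose of insulin (n = 3, replicates 1, 2 and 4). The ERRα3SA experiment has livers (n = 4) and muscles (n = 4) of mice with a germline knock-in that turns the 3 serines of ERRα into alanines, made by CRISPR editing. Livers (n = 4) and muscles (n = 4) of their WT littermates are the controls, and no treatment is given for these groups. Samples are named by group and replicate number, such as WT saline 1. Samples of the first experiment hold totals of 35871419 to 48317108 counts, and those of the second 20481405 to 33412022. Levels are given as CPM, counts scaled to TMM library sizes. As a share of the unscaled totals, before TMM, a limit of 3 counts corresponds to 0.0621 to 0.0836 CPM in the first and to 0.0898 to 0.146 CPM in the second, which covers counting error only.

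The genotype and tissue labels were checked against the counts. Esrra was at 32.3 to 51.3 CPM in WT saline livers and at 53.7 to 96.5 CPM in WT insulin livers. In ERRα-/- livers it was at 0.703 to 1.63 CPM with saline and at 0.298 to 0.833 CPM with insulin, so every ERRα-/- library was far below every WT library. The ERRα3SA knock-in leaves the transcript in place, so Esrra does not check those labels. Its level was 27.1 to 29.5 CPM in WT and 19.2 to 29.4 CPM in ERRα3SA livers, and 67.0 to 90.2 CPM in WT and 24.3 to 133 CPM in ERRα3SA muscles, lowest in ERRα3SA muscle 1. The 6 hepatocyte markers, led by Alb, summed to at least 60512 CPM in every liver and to at most 3.77 CPM in every muscle. The 6 skeletal muscle markers, led by Myh4 in muscle, summed to at least 80188 CPM in every muscle and to at most 105 CPM in every liver.

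Some libraries stood apart from the others of their group before any GTPase was examined. In ERRα3SA muscle 1, 19.3% of counts came from the mitochondrial genome, against 9.15 to 10.8% in the other 7 muscles. The same library had 179301 CPM of skeletal muscle markers, against 80188 to 107810 in the other ERRα3SA muscles. ERRα3SA muscle 4 had 125 CPM of the 9 macrophage markers (the Kupffer cell list), against 24.7 to 37.1 in the other 3. ERRα3SA liver 4 had 60512 CPM of hepatocyte markers, against 94537 to 107982 in the other 3. In the insulin experiment, WT insulin 3 had 105 CPM of skeletal muscle markers, against 0.237 to 3.45 in the other WT insulin livers, and WT insulin 2 had 1.88% of counts from the mitochondrial genome, against 3.14 to 4.82% in the other 14 livers of that experiment.

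IRG and GBP proteins are large GTPases of cell-autonomous immunity, produced by many cell types, hepatocytes included, when interferons signal through their receptors. IRG proteins fall into regulators, such as Irgm1, Irgm2 and Igtp, which guard the cell's own membranes, and effectors, such as Iigp1 and Tgtp1, which load onto the vacuoles of intracellular pathogens and disrupt them. GBP proteins gather at the same vacuoles, and part of the autophagy machinery directs both families to their targets.

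In the annotation of GRCm38 the genes lie in clusters of neighbours. On the minus strand of chromosome 11 are Irgm1 (ENSMUSG00000046879) at chr11:48861968-48871683 and Tgtp1 (ENSMUSG00000078922) at chr11:48985327-48994172, and on its plus strand Igtp (ENSMUSG00000078853) at chr11:58199556-58207591 and Irgm2 (ENSMUSG00000069874) at chr11:58199618-58222782, which overlap by 162 exon bases. On the plus strand of chromosome 3 are Gbp7 (ENSMUSG00000040253) at chr3:142530342-142550149, Gbp3 (ENSMUSG00000028268) at chr3:142560026-142573209 and Gbp2 (ENSMUSG00000028270) at chr3:142620602-142638008, and on the minus strand of chromosome 5 Gbp9 (ENSMUSG00000029298) at chr5:105077630-105139539 and Gbp6 (ENSMUSG00000104713) at chr5:105270702-105293698. For most listed genes little of the exon sequence, scored in windows of 100 bases, is shared with other annotated genes, overlapping ones included. The share was 0% for Irgm1 and Gbp2, 0.929% for Gbp3, 1.74% for Gbp9, 2.48% for Irgm2, 5.67% for Igtp and 10.2% for Gbp7. Gbp7 overlaps Gm43802 by 637 exon bases on the same strand, where its reads may have been left uncounted. Values of 2 genes are the most uncertain for this reason. Tgtp1 shares 83.3% of its windows, 80% with its neighbour Tgtp2. Gbp6 shares 51.3%, 43% with Gm43302, which overlaps 1726 of its exon bases on the same strand. Reads of Tgtp1 and Gbp6 may have been assigned to a relative or an overlapping gene or left uncounted.

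Promoter sequences show which of the listed genes carry the letters that interferon-activated factors are known to bind. RefSeq promoters of GRCm38.p6, from 250 bases before to 50 bases after a gene's RefSeq start, were at hand for 7 of the 10 genes (8 promoters, 2 of them of Gbp3), and Gbp6, Gbp9 and Iigp1 had no entry. A RefSeq start can differ from the gene bounds given above. The windows printed below for Irgm1, Irgm2 and Tgtp1 lie inside those bounds. The ISRE core GAAANNGAAA, searched on both strands, was found in 7 of the 8 promoters, against 3.44% of 32851 promoters of all genes. The GAS motif TTCNNNGAA was found in 4 of the 8, against 8.3% of all, and the ERR element TNAAGGTCA in 0 of the 8, against 1.28%. The stretch that holds the matches is printed for each gene, with 12 more bases on either side, 5′ to 3′ on the gene's strand; capitals mark the GAS and ISRE matches, and overlapping ISRE matches run together.
Irgm1, chr11:48871423-48871462, minus strand: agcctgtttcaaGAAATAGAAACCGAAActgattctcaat
Irgm2, chr11:58214890-58214934, plus strand: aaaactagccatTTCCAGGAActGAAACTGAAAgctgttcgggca
Igtp, chr11:58199499-58199543, plus strand: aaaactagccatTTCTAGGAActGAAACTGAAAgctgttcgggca
Tgtp1, chr11:48992302-48992346, minus strand: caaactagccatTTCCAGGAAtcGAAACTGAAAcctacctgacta
Gbp2, chr3:142620592-142620625, plus strand: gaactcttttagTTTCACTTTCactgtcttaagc
Gbp3, chr3:142559987-142560026, plus strand: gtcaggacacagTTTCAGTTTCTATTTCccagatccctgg
Gbp7, chr3:142530218-142530304, plus strand: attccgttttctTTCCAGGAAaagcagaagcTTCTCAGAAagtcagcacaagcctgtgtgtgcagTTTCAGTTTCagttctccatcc
The IRG genes Irgm2, Igtp and Tgtp1 have a GAS match followed after 2 bases by an ISRE match, and the windows of Igtp and Irgm2 share an unbroken run of 29 bases. Irgm1, Gbp2 and Gbp3 have ISRE matches without GAS, and Gbp7 has 2 GAS matches and 1 ISRE match. A match is a run of letters, and binding was not measured.

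Levels of the genes can be compared with each other only per length, as CPM per kb of exon. In WT saline livers Iigp1 was the most abundant at 54.7 ± 9.72 CPM per kb (SD, n = 4). The 3 regulators followed, with Irgm2 at 13.8 ± 3.59, Igtp at 8.95 ± 3.73 and Irgm1 at 7.62 ± 0.863 CPM per kb, each overlapping the next in spread. The GBP genes were lower, with Gbp7 at 1.99 ± 0.234, Gbp2 at 1.40 ± 0.762, Gbp3 at 1.16 ± 0.398 and Gbp9 at 0.706 ± 0.170 CPM per kb, and Tgtp1 came last at 0.346 ± 0.185. From Gbp7 to Gbp9 each gene overlapped the next in spread. The highest mean was 158 times the lowest, and 260 times with the length of the longest transcript in place of all exons.

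WT livers of the ERRα3SA experiment gave nearly the same order. Iigp1 was at 65.0 ± 14.2 CPM per kb (SD, n = 4), Irgm2 at 17.3 ± 3.28, Igtp at 16.6 ± 5.75 and Irgm1 at 13.2 ± 2.67, the 3 regulators overlapping in spread. Then came Gbp7 at 3.18 ± 0.942, Gbp3 at 3.04 ± 1.10, Gbp2 at 1.96 ± 0.787, Gbp9 at 1.06 ± 0.166, Tgtp1 at 1.01 ± 0.470 and Gbp6 at 0.967 ± 0.229 CPM per kb, each overlapping the next in spread. The experiments were sequenced and counted in separate tables, so their levels were not compared by a test.

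Muscle had another order. In WT muscles the regulators Igtp at 4.61 ± 0.168 and Irgm2 at 4.39 ± 0.485 CPM per kb (SD, n = 4) were the highest and overlapped. Gbp2 at 3.22 ± 0.364, Gbp7 at 2.43 ± 0.366, Irgm1 at 2.37 ± 0.0633, Gbp9 at 1.84 ± 0.350, Gbp3 at 1.62 ± 0.412, Iigp1 at 1.53 ± 0.489, Gbp6 at 1.19 ± 0.244 and Tgtp1 at 0.426 ± 0.264 CPM per kb came next. The spreads left a gap between Irgm2 and Gbp2, Gbp2 and Gbp7, Irgm1 and Gbp9, and Gbp6 and Tgtp1, and the other neighbours overlapped.

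**Figure D1:**
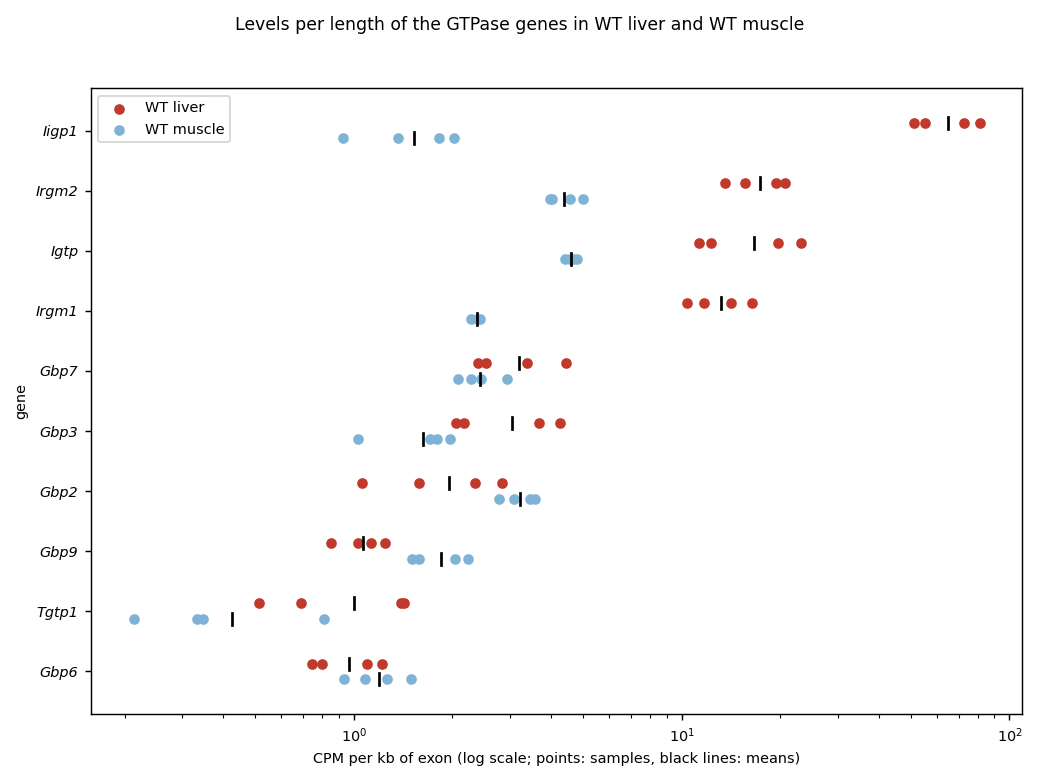
Levels of the 10 GTPase genes in CPM per kb of exon (log scale) in WT liver and WT muscle; each point is a sample (n = 4 per tissue) and black lines are means. Iigp1 is the highest in liver, at 65.0 CPM per kb, and among the lower genes in muscle, at 1.53.

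The comparison of WT muscle with WT liver shows how far the families are liver genes. Iigp1, the effector, had 422, 298, 472 and 321 CPM in WT livers 1 to 4 and 11.7, 7.94, 5.38 and 10.6 CPM in WT muscles 1 to 4. Each liver was far above each muscle. Its log2 fold change was -5.37 ± 0.23 (SE; edgeR quasi-likelihood test, Benjamini-Hochberg adjusted p = 2.15e-11), lower in 4 of 4 muscles. A gene was called where the unadjusted p was under 0.05 and the fold change at least 1.2 in either direction, the study's own criteria. By that rule 6 of the 10 GTPases were lower in muscle, where 42.2% of all genes tested were called lower, and 2 were higher, where 42.0% were called higher. With adjusted p under 0.05, 8 of the 10 passed, against 86.5% of all genes. These counts are near the background of a comparison in which most genes differ.

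By role, the 3 regulators were lower in muscle, with log2 fold changes of -2.44 for Irgm1, -1.95 for Irgm2 and -1.82 for Igtp, and so was Tgtp1 at -1.21. The GBP genes did not move as 1 group. Gbp3 was lower in muscle (-0.87) while Gbp9 (0.82) and Gbp2 (0.73) were higher, and the values of Gbp7 (-0.36) and Gbp6 (0.33) did not pass the test. The call of Gbp7 was made without WT liver 2 (-0.47), WT liver 4 (-0.49) or WT muscle 4 (-0.49), and that of Gbp6 without WT liver 1 (0.46) or WT muscle 1 (0.41). With no filter on low counts both were called (-0.36 and 0.32), which made 10 of 10, where 28.4% of all genes were called lower and 30.4% higher. The median log2 fold change was -1.04 over the GTPases and 0.001 over all 14886 genes tested. With no filter the median over all genes moved to 0.148, which is the scale against which the values of that fit have to be read.

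Counts for other lists have to be read against the same shares of all genes, 42.2% lower and 42.0% higher in muscle. Of 21 further IRG, GBP and related genes, 19 were tested, with 10 lower and 5 higher in muscle. Lower were the IRG genes Gm4951 (log2 fold change -8.18) and Ifi47 (-4.37), the GBP genes Gbp11 (-5.84), Gbp2b (-5.60), Gbp8 (-4.01) and Gbp10 (-1.30), the antiviral dynamin-like GTPases Mx2 (-3.68) and Mx1 (-2.43), and Gvin1 (-1.31) and Gm5431 (-1.14). Higher were Gm12185 (2.97), F830016B08Rik (1.65), Gbp5 (1.21), Gbp4 (0.95) and 9930111J21Rik2 (0.61). Among 15 tested genes of interferon signalling 9 were lower and 5 higher. Stat2 (-3.61), Ifnar2, a chain of the type I interferon receptor (-3.09), and Irf9 (-2.62) were lower, and Ifngr2, a chain of the interferon-gamma receptor, was higher (1.88). Of 14 tested interferon-gamma targets that are not GTPases, 8 were lower and 1 was higher. Tap1, a peptide transporter of antigen presentation (-3.39), Nlrc5, a regulator of MHC class I genes (-3.46), and the immunoproteasome genes Psmb8 (-3.46) and Psmb9 (-3.10) had the smallest p of these. Of 13 autophagy genes that direct the GTPases to vacuoles, 7 were lower, among them Gabarapl1 (-2.92), Atg5 (-1.96) and Atg7 (-2.49), and 2 were higher, among them Map1lc3a (1.79).

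Insulin was followed by lower levels of several GTPases in the liver. In WT mice 4 of 9 GTPases, Gbp7, Irgm1, Iigp1 and Gbp9, were called lower and 0 higher, where 8.91% of the 13463 genes tested were called lower. In ERRα-/- mice 7 of 9, all but Tgtp1 and Gbp3, were called lower and 0 higher, where 9.14% of the 13684 genes tested were called lower. The median log2 fold change over the 9 genes was -0.53 in WT and -0.61 in ERRα-/- livers, and over all genes 0.004 and -0.022. A change in the number of cells that hold these transcripts cannot be told apart from a change in transcripts per cell in RNA of whole tissue.

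**Figure D2:**
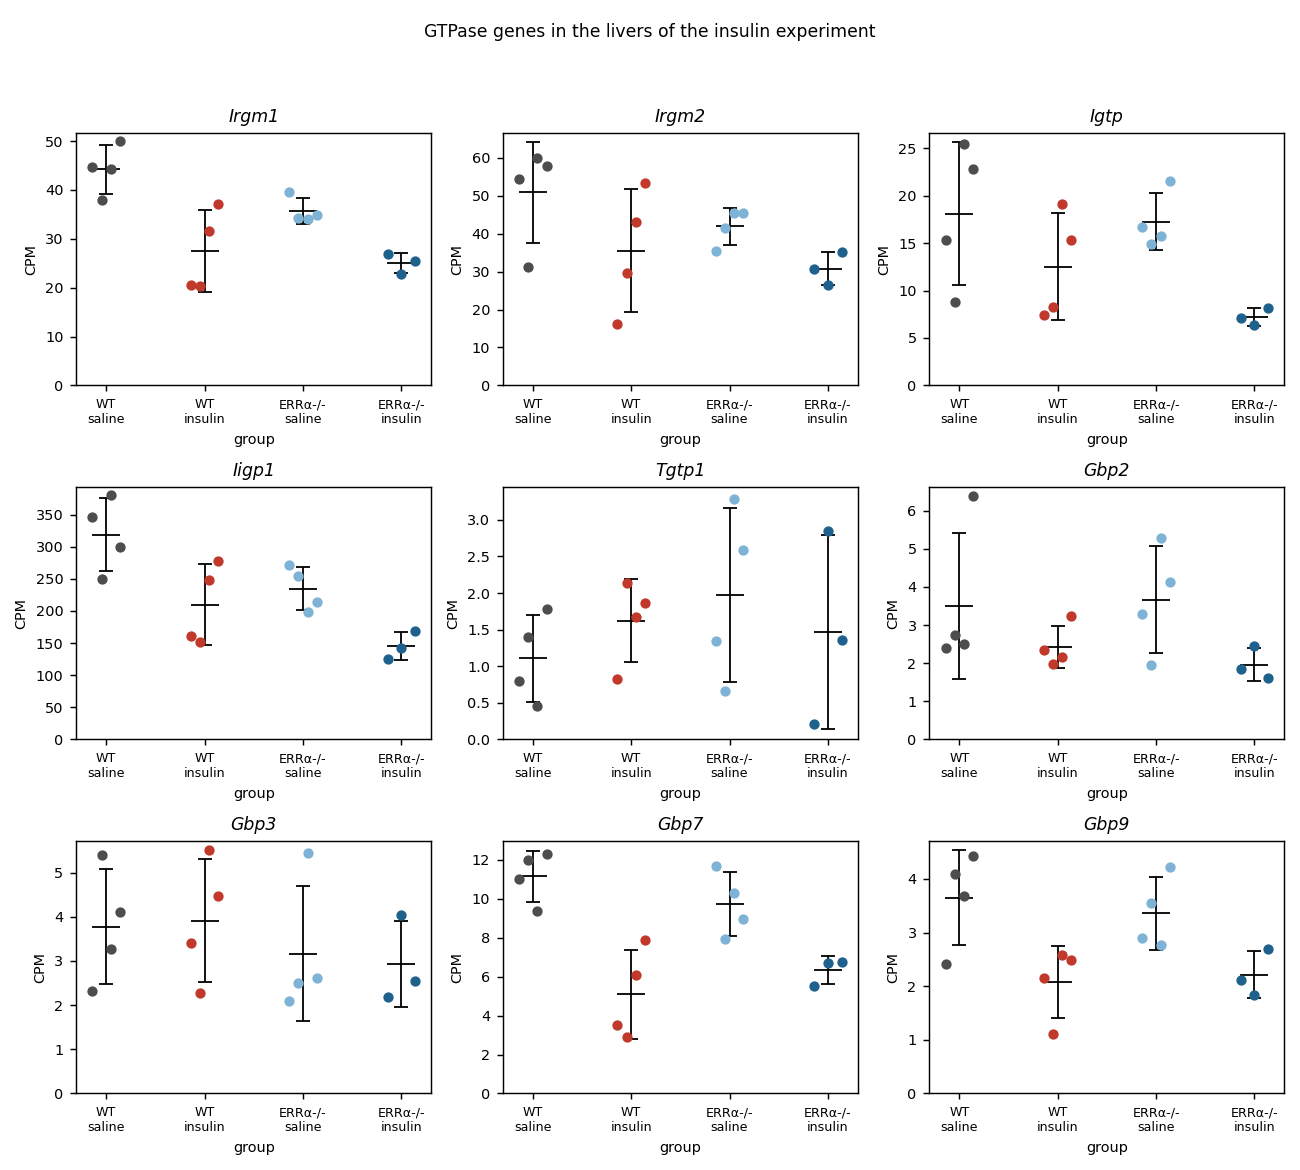
CPM of the 9 GTPase genes counted in the insulin experiment, by group; points are livers (n = 4, and n = 3 for ERRα-/- mice given insulin), horizontal lines are means and bars are SD. All insulin livers lie below all saline livers for Irgm1 and Gbp7 in WT mice and for Igtp, Irgm1, Iigp1, Gbp7, Irgm2 and Gbp9 in ERRα-/- mice.

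Irgm1, the regulator that protects host membranes and autophagy, had 44.7, 37.9, 44.2 and 50.1 CPM in WT saline 1 to 4 and 20.6, 20.3, 31.7 and 37.2 CPM in WT insulin 1 to 4. Its values were 39.6, 34.3, 34.1 and 34.8 CPM in ERRα-/- saline 1 to 4 and 26.8, 22.8 and 25.4 CPM in ERRα-/- insulin 1, 2 and 4. In both genotypes every insulin liver was below every saline liver, and in WT mice the insulin livers 1 and 2 were lower than 3 and 4. Irgm1 fell by 0.69 ± 0.20 on the log2 scale in WT livers (edgeR quasi-likelihood test, Benjamini-Hochberg adjusted p = 0.0958) and by 0.52 ± 0.11 in ERRα-/- livers (adjusted p = 0.0350 by the same test), lower in 4 of 4 and 3 of 3 livers.

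Igtp, another regulator, had 15.3, 8.82, 25.5 and 22.8 CPM in WT saline 1 to 4 and 7.44, 8.31, 19.1 and 15.3 CPM in WT insulin 1 to 4. In ERRα-/- mice it had 16.7, 14.9, 15.8 and 21.6 CPM in saline 1 to 4 and 7.08, 6.34 and 8.17 CPM in insulin 1, 2 and 4. The WT groups overlapped, with wide spread in both, while the ERRα-/- groups lay apart, all 3 insulin livers below all 4 saline livers. Igtp of ERRα-/- livers fell by 1.26 ± 0.17 on the log2 scale, with the smallest p of the 9 genes (edgeR quasi-likelihood test, Benjamini-Hochberg adjusted p = 0.00588). Its log2 fold change in WT livers was -0.53 ± 0.36 and did not pass the test (adjusted p = 0.483). It was called without WT saline 2, the lowest of its group (-0.76), and with the replicate number as a block (-0.53).

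Irgm2, the third regulator, had 54.4, 31.3, 59.9 and 57.9 CPM in WT saline 1 to 4 and 16.1, 29.5, 43.2 and 53.3 CPM in WT insulin 1 to 4. Its ERRα-/- livers were at 35.3, 41.5, 45.4 and 45.4 CPM with saline and at 30.6, 26.5 and 35.2 CPM with insulin. WT saline 2 lay among the insulin livers and WT insulin 4 among the saline livers, and the ERRα-/- groups came close without overlap. Irgm2 fell in ERRα-/- livers by 0.45 ± 0.13 on the log2 scale (edgeR quasi-likelihood test, Benjamini-Hochberg adjusted p = 0.104), a call lost with all 4 groups in 1 fit (-0.45). For WT livers the log2 fold change was -0.52 ± 0.32, not called (edgeR, adjusted p = 0.439), and it was called without WT insulin 4 (-0.78) and with the replicate number as a block (-0.59).

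The effector that coats vacuoles, Iigp1 (ENSMUSG00000054072), lies on the plus strand at chr18:60376027-60392634 and shares 0% of its exon windows. Iigp1 had 346, 250, 380 and 299 CPM in WT saline 1 to 4 and 161, 152, 248 and 278 CPM in WT insulin 1 to 4. ERRα-/- livers had 271, 255, 199 and 214 CPM with saline and 125, 143 and 168 CPM with insulin. WT insulin 4 lay above WT saline 2, the only overlap between the WT groups, and the ERRα-/- groups did not overlap. Iigp1 fell by 0.60 ± 0.21 on the log2 scale in WT livers (edgeR quasi-likelihood test, Benjamini-Hochberg adjusted p = 0.166) and by 0.70 ± 0.15 in ERRα-/- livers (adjusted p = 0.0350 by the same test). Tgtp1, the other effector, was near the lower end of detection and varied widely, at 0.457 to 1.78 CPM in WT saline, 0.824 to 2.13 in WT insulin, 0.655 to 3.29 in ERRα-/- saline and 0.208 to 2.85 in ERRα-/- insulin livers. The groups overlapped throughout, and its log2 fold changes of 0.55 ± 0.48 in WT and -0.43 ± 0.72 in ERRα-/- livers did not pass the test.

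Among the GBP genes Gbp7, which takes part in oxidative and autophagic defence at vacuoles, had 11.0, 12.0, 9.39 and 12.3 CPM in WT saline 1 to 4 and 3.53, 2.89, 6.07 and 7.87 CPM in WT insulin 1 to 4. With ERRα-/- it had 11.7, 7.93, 10.3 and 8.96 CPM with saline and 5.52, 6.72 and 6.78 CPM with insulin. No insulin liver of either genotype reached a saline liver of that genotype. Gbp7 fell by 1.13 ± 0.29 on the log2 scale in WT livers (edgeR quasi-likelihood test, Benjamini-Hochberg adjusted p = 0.0607) and by 0.62 ± 0.18 in ERRα-/- livers (adjusted p = 0.0993 by the same test).

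Gbp9 had 2.41, 4.10, 3.68 and 4.42 CPM in WT saline 1 to 4 and 2.15, 1.11, 2.58 and 2.49 CPM in WT insulin 1 to 4. The ERRα-/- livers had 2.89, 3.56, 2.76 and 4.23 CPM with saline and 2.11, 1.84 and 2.69 CPM with insulin. WT saline 1 lay among the insulin livers, and the ERRα-/- groups were apart by a small gap. Gbp9 fell by 0.81 ± 0.32 in WT livers and by 0.61 ± 0.26 in ERRα-/- livers on the log2 scale (edgeR quasi-likelihood test, Benjamini-Hochberg adjusted p = 0.223 and adjusted p = 0.261). Its WT call was lost without WT saline 2, 3 or 4 or WT insulin 2 (log2 fold changes -0.75, -0.80, -0.70 and -0.60). Its ERRα-/- call was lost without saline 2 or 4 or insulin 1 or 2 (-0.57, -0.48, -0.57 and -0.49), with no filter (-0.61) and with all groups in 1 fit (-0.60).

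Gbp2 had 2.41, 2.75, 2.51 and 6.38 CPM in WT saline 1 to 4 and 2.34, 1.99, 2.15 and 3.23 CPM in WT insulin 1 to 4, where only WT saline 4 stood high. Its ERRα-/- livers had 3.28, 1.96, 5.29 and 4.12 CPM with saline and 1.85, 2.44 and 1.60 CPM with insulin. It fell by 0.90 ± 0.34 on the log2 scale in ERRα-/- livers (edgeR quasi-likelihood test, Benjamini-Hochberg adjusted p = 0.195), although the groups overlapped at ERRα-/- saline 2. That call was lost without ERRα-/- saline 3 or 4 or ERRα-/- insulin 1 or 4 (log2 fold changes -0.67, -0.85, -0.86 and -0.77) and with the replicate number as a block (-0.63). Gbp3 was at 2.10 to 5.52 CPM in all 15 livers with full overlap, and its log2 fold changes were 0.05 ± 0.33 in WT and -0.12 ± 0.37 in ERRα-/- livers.

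**Figure D3:**
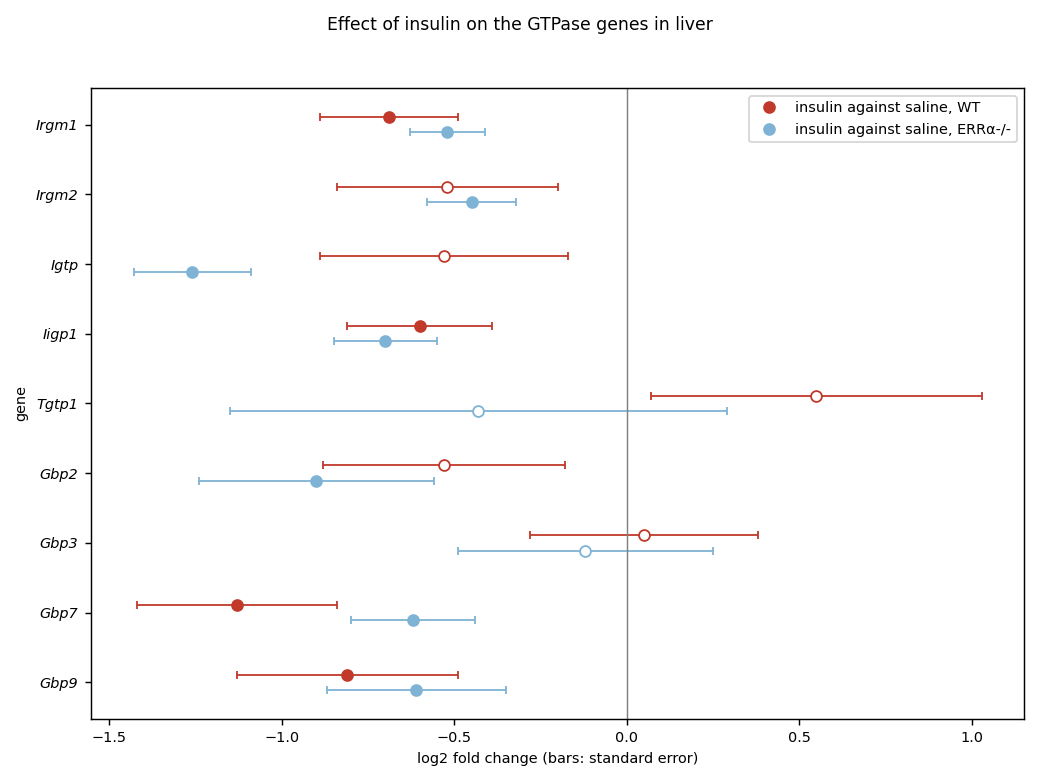
Log2 fold change of insulin against saline for the 9 GTPase genes in WT livers (n = 4 and 4) and ERRα-/- livers (n = 4 and 3); bars are standard errors, filled points passed the test and open points did not. Filled points lie at or below -0.45 in both genotypes.

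Set against all genes, with adjusted p under 0.05 the GTPases passing were 0 of 9 in WT livers, where 3.16% of all genes passed, and 3 of 9 (Igtp, Irgm1 and Iigp1) in ERRα-/- livers, where 2.91% passed. These counts depend on the fit. With all 4 groups in 1 edgeR fit they turned round, to 2 of 9 in WT and 0 of 9 in ERRα-/- livers, where 5.22% and 1.79% of all genes passed, while DESeq2 gave 2 and 5, where 6.95% and 7.22% passed. In WT livers the count was 2 with the replicate number as a block, where 3.02% of all genes passed. It was 1 with no filter or without WT insulin 4, where 2.27% and 1.19% passed. In ERRα-/- livers the count was 0 without ERRα-/- insulin 2, where 0.298% of all genes passed, and 2 without ERRα-/- saline 2, where 3.11% passed. It was 1 without ERRα-/- saline 1 or 4 or ERRα-/- insulin 1 or 4, where 0.461% to 2.85% passed. By the unadjusted rule DESeq2 called 4 and 7 as edgeR did, where 9.47% and 9.43% of all genes were called lower. The block gave 6 and 6, where 9.40% and 8.68% were, and all groups in 1 fit gave 4 and 5, where 9.74% and 7.28% were. The groups did not overlap, with insulin lower, for 2 of 9 genes in WT livers, where 6.54% of all genes did so, and for 6 of 9 in ERRα-/- livers, where 8.32% did. Leaving out each liver in turn gave 3 to 5 genes called in WT and 5 to 7 in ERRα-/- mice.

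The summed level of the 9 GTPases was 479, 354, 529 and 459 CPM in WT saline 1 to 4, and 217, 220, 361 and 403 CPM in WT insulin 1 to 4. It was 384, 362, 321 and 339 CPM in ERRα-/- saline 1 to 4, and 201, 217 and 251 CPM in ERRα-/- insulin 1, 2 and 4. Iigp1 makes up most of these sums. WT insulin 3 and 4 reached the lowest saline liver, and the ERRα-/- groups were separate.

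Some further genes of the families were called lower after insulin. Of 16 tested, 4 were lower and 0 higher in WT livers, and 6 lower and 0 higher in ERRα-/- livers, against the 8.91% and 9.14% of all genes named before. The log2 fold change was above 0 for 4 of the 16 in each genotype. F830016B08Rik, an IRG gene, was at 37.0 to 53.1 CPM in WT saline and 10.2 to 20.4 CPM in WT insulin livers, a fall by 1.49 ± 0.21 on the log2 scale (edgeR quasi-likelihood test, Benjamini-Hochberg adjusted p = 0.00464), with every insulin liver below every saline liver. Gm4951 was at 109 to 143 and 53.9 to 91.1 CPM in the same groups, and Ifi47 at 8.37 to 11.2 and 5.05 to 6.35 CPM, falls by 0.82 and 0.76 on the log2 scale, and 9930111J21Rik2 fell by 0.67. In ERRα-/- livers Ifi47 fell by 1.12, Gm4951 by 0.60, F830016B08Rik by 0.66, Irgq by 0.37, Mx2, an antiviral dynamin-like GTPase, by 1.04 and Gbp2b by 1.00 on the log2 scale.

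Upstream of the GTPases, Ifng, the gene of interferon gamma, had 0 counts in 14 of the 15 livers and 5 counts in ERRα-/- saline 4. Of 14 tested signalling genes, 2 were lower in WT livers after insulin, where 8.91% of all genes were called lower, and 0 were higher. The 2 were Tyk2, a kinase of the interferon receptors (-0.59), and Ifngr2 (-0.41). For ERRα-/- mice Ifngr2 (-0.93), Stat2 (-0.40) and Tyk2 (-0.38) were among the genes called lower, where 9.14% of all genes were, and 0 were higher.

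Among interferon-gamma targets outside the families 3 of 14 tested were lower after insulin in WT livers, Tap1 (-0.71), Cd274 (-0.76) and Ciita (-1.84), and 0 higher. With ERRα-/- 3 of 15 were lower, Psmb10 of the immunoproteasome (-0.86), the chemokine gene Cxcl10 (-2.66) and Tap1 (-0.55), and 0 higher. Of all genes 8.91% were called lower in WT and 9.14% in ERRα-/- livers. Cxcl10 was at 0.533 to 1.64 CPM in ERRα-/- saline livers and at 0 to 0.364 CPM in ERRα-/- insulin livers. Of the autophagy genes that direct the GTPases 3 of 13 were called higher and 0 lower in WT livers, where 8.34% of all genes were called higher: Gabarapl2 (0.50), Sqstm1 (0.33) and Atg12 (0.36). None of the 13 passed with adjusted p under 0.05 by edgeR. Among ERRα-/- livers 1 of 13 was higher, Atg16l1 (0.66), where 8.05% of all genes were, and 1 was lower, Trim21, an antibody receptor and ubiquitin ligase (-0.89). Atg16l1 also passed the correction there (edgeR quasi-likelihood test, Benjamini-Hochberg adjusted p = 0.0354), where 2.91% of all genes passed.

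Markers of the cells of the liver were read beside these values. The 9 Kupffer cell markers, led by Clec4f, summed to 180, 341, 225 and 240 CPM in WT saline 1 to 4 and to 303, 317, 170 and 228 CPM in WT insulin 1 to 4. They summed to 202, 198, 201 and 233 CPM in ERRα-/- saline 1 to 4 and to 189, 227 and 290 CPM in ERRα-/- insulin 1, 2 and 4, so the insulin groups were within or above the range of the saline groups but for WT insulin 3 and ERRα-/- insulin 1. After insulin 1 of the 9, C1qb, was called higher in WT livers and 0 in ERRα-/- livers by edgeR, with 0 lower. Marker calls here and below have to be read against all genes. In WT livers 8.91% of all genes were called lower and 8.34% higher, and in ERRα-/- livers 9.14% lower and 8.05% higher. The 11 T and NK cell markers, led by Cd4, summed to 1.19 to 3.08 CPM in WT saline and 1.15 to 2.71 CPM in WT insulin livers. In ERRα-/- livers their sums were 3.13 to 5.17 CPM with saline and 2.96 to 3.33 CPM with insulin, with Cd8a and Klrb1c called lower after insulin. At or under 3 counts were Cd3g, Cd8a, Ncr1, Gzma and Prf1 in ERRα-/- insulin livers, so that Cd8a was at the limit there, Ncr1 and Prf1 in WT insulin livers and Ncr1 in ERRα-/- saline livers. The 6 markers of monocytes and dendritic cells, led by Itgax, Ccr2 or Siglech depending on the group, summed to 1.89 to 3.31 CPM in WT saline and 1.33 to 4.0 CPM in WT insulin livers. In ERRα-/- mice they summed to 3.39 to 4.57 CPM with saline and to 1.85 to 3.04 CPM with insulin, so every insulin liver was below every saline liver, as for several GTPases, and 1 of them, Ccr2, was called lower (-1.42). The 4 neutrophil markers, led by S100a9, summed to 0.343 to 2.06 CPM in WT saline and 1.76 to 4.41 CPM in WT insulin livers, with S100a8 called higher (2.44) and Ly6g at or under 3 counts. Of 5 endothelial markers Kdr was lower in WT livers (-0.60), and their sum was 120 to 207 CPM with saline and 108 to 161 CPM with insulin. Of 5 markers of stellate cells and fibroblasts, led by Dcn, Lrat (-0.88) and Col3a1 (-0.68) were lower in WT livers, while their sum was 118 to 144 CPM and 114 to 142 CPM. The part of these cells in the result was not tested.

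Whether insulin acted differently on a GTPase in the 2 genotypes was tested by the interaction, the insulin effect in ERRα-/- minus that in WT livers. By the quasi-likelihood test of edgeR 0 of the 9 genes were called, where 8.79% of the 14670 genes tested were called in either direction, and 0% of all genes passed with adjusted p under 0.05. DESeq2 called 0 of the 9 as well. The smallest p was that of Igtp, with a difference of -0.73 ± 0.45 (edgeR quasi-likelihood test, Benjamini-Hochberg adjusted p = 0.657), and Gbp7 followed with 0.51 ± 0.36 (adjusted p = 0.699). Without WT insulin 4 the difference of Gbp7 was 0.80, which made 1 call of 9. The other differences were -0.97 ± 0.92 for Tgtp1, -0.37 ± 0.51 for Gbp2, -0.17 ± 0.52 for Gbp3, -0.09 ± 0.28 for Iigp1, 0.07 ± 0.40 for Irgm2, 0.17 ± 0.25 for Irgm1 and 0.20 ± 0.42 for Gbp9. The median over the 9 genes was -0.09 and over all genes -0.020. The larger number of calls in ERRα-/- mice is therefore not shown to be a difference between the genotypes. Calls in the other lists have to be read against the 8.79% of all genes, and none of the genes passed with adjusted p under 0.05 by edgeR. They were 1 of 16 further family genes, F830016B08Rik (0.83 ± 0.31), 1 of 15 signalling genes, Ifngr2 (-0.52), 1 of 16 targets, Psmb10 (-0.65), and 2 of 13 autophagy genes, Map1lc3b (-0.45) and Gabarapl2 (-0.50).

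ERRα-/- livers were compared with WT livers within each treatment; these comparisons share their samples with those of insulin. With saline 2 of 9 GTPases were lower and 0 higher in ERRα-/- livers, where 5.30% of all genes were lower: Iigp1, by -0.44 ± 0.15 on the log2 scale, and Irgm1, by -0.31 ± 0.11. ERRα-/- saline 1 and 2 lay among the WT values for Iigp1 and ERRα-/- saline 1 among those for Irgm1, so the groups overlapped. Neither passed the correction over all genes (edgeR quasi-likelihood test, Benjamini-Hochberg adjusted p = 0.277 for Iigp1 and adjusted p = 0.289 for Irgm1). No GTPase passed with adjusted p under 0.05 in edgeR or DESeq2, where 0.0816% of all genes did in edgeR, and DESeq2 called 2 by the unadjusted rule. Irgm1 was not called without WT saline 4 (-0.24), which left 1 gene, nor with all groups in 1 fit (-0.31). Irgm2 was called without WT saline 2 (-0.45) and Tgtp1 without ERRα-/- saline 2 (1.12). The genes that did not pass were Irgm2 (-0.28), Gbp3 (-0.25), Gbp7 (-0.20), Gbp9 (-0.12), Igtp (-0.07), Gbp2 (0.06) and Tgtp1 (0.83). The median log2 fold change was -0.20 over the GTPases and 0.004 over all genes. Of the 9 Kupffer cell markers 2 were lower in ERRα-/- saline livers, Adgre1 (-0.76) and Vsig4 (-0.39), with summed levels of 198 to 233 CPM against 180 to 341 CPM in WT saline livers. Of the other immune lists, 2 were higher in every ERRα-/- saline liver than in any WT saline liver, with sums of 3.13 to 5.17 against 1.19 to 3.08 CPM for T and NK cells and of 3.39 to 4.57 against 1.89 to 3.31 CPM for monocytes and dendritic cells. The part of these cells in the result was not tested.

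With insulin 2 of 9 were lower in ERRα-/- livers and 0 higher, where 5.42% of all genes were lower: Igtp (-0.81 ± 0.32) and Iigp1 (-0.54 ± 0.22). ERRα-/- insulin livers were below 3 of the 4 WT insulin livers for Igtp, with ERRα-/- insulin 4 above WT insulin 1, and overlapped the lower WT livers for Iigp1. After correction over all genes neither passed (edgeR quasi-likelihood test, Benjamini-Hochberg adjusted p = 0.420 for Igtp and adjusted p = 0.457 for Iigp1). None of the 9 passed with adjusted p under 0.05 by edgeR or DESeq2, where 0.0585% of all genes did by edgeR, and DESeq2 called 2 by the unadjusted rule. Both calls were lost, leaving 0, without ERRα-/- insulin 1, ERRα-/- insulin 2, WT insulin 3 or WT insulin 4, where the values of Igtp were -0.80, -0.73, -0.53 and -0.70 and those of Iigp1 -0.44, -0.52, -0.44 and -0.37. With the replicate number as a block the call of Igtp was lost (-0.47), which left 1. Values that did not pass were those of Gbp3 (-0.43), Gbp2 (-0.31), Irgm2 (-0.22), Irgm1 (-0.15), Tgtp1 (-0.15), Gbp9 (0.08) and Gbp7 (0.31). The median was -0.22 over the 9 genes and -0.021 over all genes. Hepatocyte markers, led by Alb, summed to 112447 to 122826 CPM in ERRα-/- and to 95311 to 100599 CPM in WT insulin livers, with no overlap, and T and NK cell markers to 2.96 to 3.33 against 1.15 to 2.71 CPM. Kupffer cell sums of 189 to 290 and 170 to 317 CPM overlapped, as did those of monocytes and dendritic cells, 1.85 to 3.04 and 1.33 to 4.0 CPM. The part of these cells was not tested here either.

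The other lists were compared between the genotypes by the same rule. With saline 2 of 16 further family genes were lower, Gbp8 (-1.36) and F830016B08Rik (-0.51), where 5.30% of all genes were lower, and 0 higher. Of 14 signalling genes 3 were higher, Ptpn2, a phosphatase of interferon signalling (0.59), Ifngr1 (0.32) and Stat2 (0.27), and 0 lower, where 5.98% of all genes were higher. Of the 14 targets 0 were called in either direction by edgeR, and 2 of 13 autophagy genes were higher, Map1lc3b (0.37) and Map1lc3a (0.40). With insulin 0 of 16 further family genes were called by edgeR, 1 of 14 signalling genes was lower, Ifngr2 (-0.49), and 1 of 16 targets was lower, Psmb10 (-0.64), where 5.42% of all genes were lower. Of 13 autophagy genes 1 was higher, Atg7 (0.37), where 4.57% of all genes were.

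In the ERRα3SA experiment the direction in liver was up. By the same rule 9 of the 10 GTPases were higher in ERRα3SA than in WT livers and 0 lower, where 2.50% of the 13339 genes tested were called higher. Since the list was chosen with earlier results of these data known, that contrast is a description only. All 10 had a log2 fold change above 0, from 0.37 to 1.16, with a median of 0.51 against 0.000 over all genes. After Benjamini-Hochberg adjustment no GTPase had p under 0.05 in the quasi-likelihood test of edgeR, and 0% of all genes did. DESeq2 called 9 by the unadjusted rule and 1, Gbp6, with adjusted p under 0.05, where 0.315% of all genes passed in DESeq2. The groups did not overlap for 2 of the 10, with ERRα3SA higher, where 2.31% of all genes did so.

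**Figure D4:**
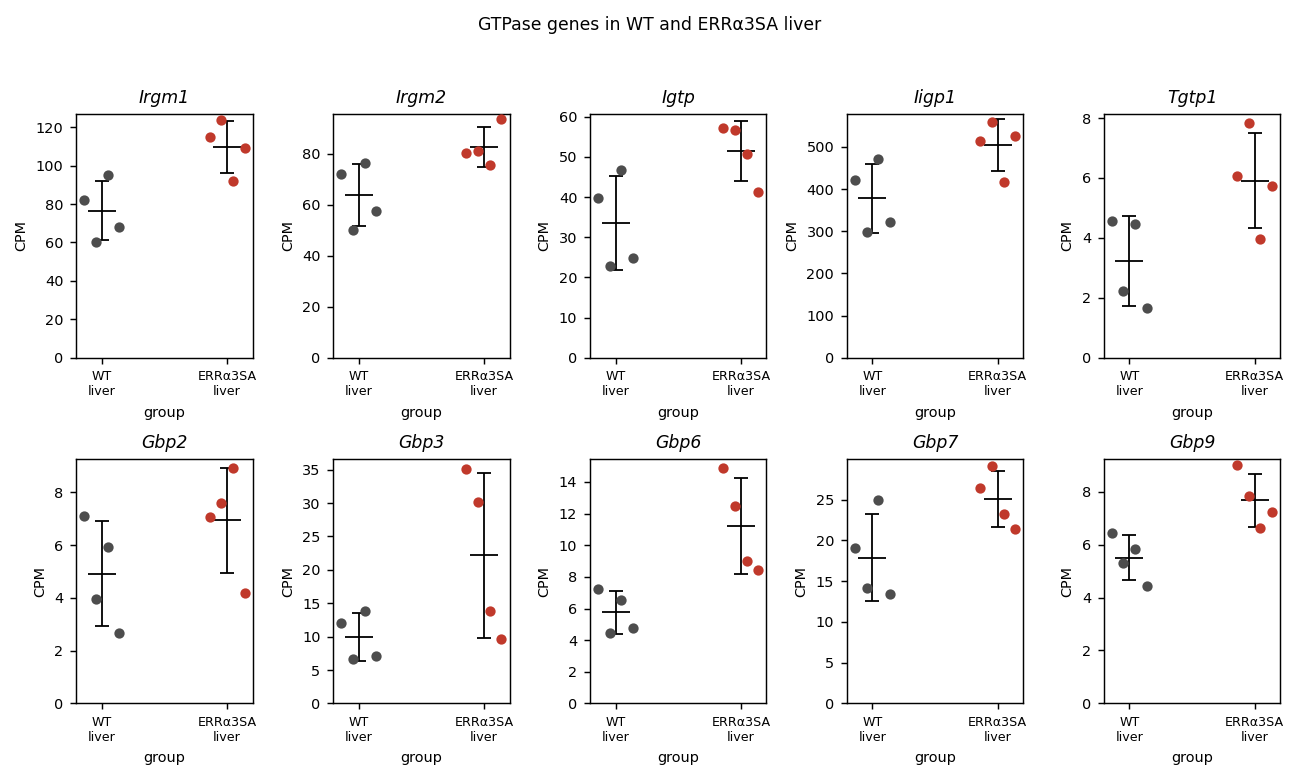
CPM of the 10 GTPase genes in WT and ERRα3SA livers; points are livers in replicate order (n = 4 per group), horizontal lines are means and bars are SD. WT livers 2 and 4 lie below WT livers 1 and 3 for all 10 genes, and Gbp6 and Gbp9 are the genes whose groups do not overlap.

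The regulator Irgm1 had 82.1, 60.5, 95.4 and 68.0 CPM in WT livers 1 to 4 and 115, 124, 91.9 and 109 CPM in ERRα3SA livers 1 to 4. WT liver 3 lay above ERRα3SA liver 3, and the other livers were separate. Irgm1 rose by 0.53 ± 0.14 on the log2 scale (edgeR quasi-likelihood test, Benjamini-Hochberg adjusted p = 0.528). Irgm2 had 71.8, 50.2, 76.1 and 57.4 CPM in WT livers and 80.2, 80.9, 75.5 and 93.5 CPM in ERRα3SA livers, where only WT liver 3 and ERRα3SA liver 3 overlapped. Igtp had 39.8, 22.8, 46.8 and 24.9 CPM in WT livers and 57.3, 56.8, 50.7 and 41.3 CPM in ERRα3SA livers, with WT liver 3 above ERRα3SA liver 4. Irgm2 rose by 0.37 ± 0.13 and Igtp by 0.62 ± 0.22 on the log2 scale (edgeR quasi-likelihood test, Benjamini-Hochberg adjusted p = 0.629 for both). Both calls were lost without WT liver 4 (0.32 for Irgm2 and 0.50 for Igtp).

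Of the effectors, Iigp1 had 422, 298, 472 and 321 CPM in WT livers 1 to 4 and 515, 560, 417 and 526 CPM in ERRα3SA livers 1 to 4. ERRα3SA liver 3 lay below WT livers 1 and 3 and above WT livers 2 and 4, and the other 3 lay above all WT livers. Iigp1 rose by 0.42 ± 0.16 on the log2 scale (edgeR quasi-likelihood test, Benjamini-Hochberg adjusted p = 0.629). That call was lost without WT liver 2 or 4 or ERRα3SA liver 1 or 2 (log2 fold changes 0.32, 0.35, 0.41 and 0.37) and with liver and muscle in 1 fit (0.41). Tgtp1 had 4.57, 2.22, 4.46 and 1.65 CPM in WT livers and 6.07, 7.84, 3.97 and 5.73 CPM in ERRα3SA livers, with ERRα3SA liver 3 below WT livers 1 and 3. It rose by 0.87 ± 0.33 on the log2 scale (edgeR quasi-likelihood test, Benjamini-Hochberg adjusted p = 0.632), a call lost without WT liver 2 or 4 or ERRα3SA liver 2 (0.72, 0.66 and 0.70).

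Gbp6, whose reads are in doubt because of Gm43302, had 7.25, 4.44, 6.56 and 4.78 CPM in WT livers 1 to 4 and 14.9, 12.5, 9.02 and 8.42 CPM in ERRα3SA livers 1 to 4. All ERRα3SA livers were above all WT livers. It rose by 0.96 ± 0.22 on the log2 scale, with the smallest p of the 10 genes (edgeR quasi-likelihood test, Benjamini-Hochberg adjusted p = 0.493). Gbp9 had 6.45, 5.31, 5.83 and 4.42 CPM in WT livers and 8.99, 7.84, 6.62 and 7.22 CPM in ERRα3SA livers, again with no overlap. Gbp9 rose by 0.48 ± 0.14 on the log2 scale (edgeR quasi-likelihood test, Benjamini-Hochberg adjusted p = 0.563).

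Gbp3 had 12.0, 6.70, 13.9 and 7.10 CPM in WT livers 1 to 4 and 35.1, 30.1, 13.9 and 9.63 CPM in ERRα3SA livers 1 to 4. ERRα3SA livers 1 and 2 were far above all others, and ERRα3SA livers 3 and 4 lay within or at the edge of the WT range. Its rise by 1.16 ± 0.40 on the log2 scale was the largest of the 10 genes (edgeR quasi-likelihood test, Benjamini-Hochberg adjusted p = 0.627), and it was not called without ERRα3SA liver 1 (0.85) or 2 (0.98). Gbp7 had 19.0, 14.2, 24.9 and 13.4 CPM in WT livers and 26.4, 29.1, 23.2 and 21.4 CPM in ERRα3SA livers, with WT liver 3 among the ERRα3SA livers. Gbp7 rose by 0.49 ± 0.19 (edgeR quasi-likelihood test, Benjamini-Hochberg adjusted p = 0.639), a call lost without WT liver 2 or 4 or ERRα3SA liver 1 or 2 (0.39, 0.37, 0.46 and 0.41). Gbp2 had 7.12, 3.96, 5.92 and 2.68 CPM in WT livers and 7.06, 7.60, 8.92 and 4.19 CPM in ERRα3SA livers, with overlap. Its log2 fold change was 0.49 ± 0.31 and did not pass, and it was called without WT liver 1 (0.73) or ERRα3SA liver 4 (0.66) and with the replicate number as a block (0.53).

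Single livers decide how many genes were called. Without WT liver 4 the count was 4 of 10, without ERRα3SA liver 2 it was 5, and without ERRα3SA liver 4, the library low in hepatocyte markers, it was 10. It was 10 as well without WT liver 1 and with the replicate number as a block. The summed level of the 9 GTPases other than Gbp6 was 665, 463, 746 and 501 CPM in WT livers 1 to 4, and 851, 904, 691 and 818 CPM in ERRα3SA livers 1 to 4. WT livers 1 and 3 were high and 2 and 4 low, and WT liver 3 lay above ERRα3SA liver 3.

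Of 18 further family genes tested in liver 7 were called higher in ERRα3SA and 0 lower, where 2.50% of all genes were called higher. Of all 18 the log2 fold change was above 0 for 17 and below 0 for Gbp8 (-0.15). The 7 became 4 without WT liver 2, 4 without WT liver 4, 3 without ERRα3SA liver 2 and 4 with the replicate number as a block. In these fits 1.92% to 2.36% of all genes were called higher. Gvin1, a very large interferon-inducible GTPase, was at 1.15 to 4.37 CPM in WT and 2.99 to 9.46 CPM in ERRα3SA livers (log2 fold change 1.53 ± 0.42). Gbp10, which shares most of its sequence with Gm43302, was at 6.83 to 15.6 and 11.8 to 34.6 CPM (1.11 ± 0.40). Gm4070 (1.35), Mx1 (0.76), Mx2 (0.60), Gbp5 (0.45) and Tgtp2 (0.41) were also higher.

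Upstream, of 15 tested signalling genes 0 were lower in ERRα3SA livers by edgeR. Irf9, a DNA-binding factor of type I interferon signalling, was among the genes called higher, at 32.6 to 42.2 CPM in WT and 41.2 to 53.8 CPM in ERRα3SA livers (log2 fold change 0.41 ± 0.11). Ifng was at 0 to 3 counts in each sample of the ERRα3SA experiment. Of 15 interferon-gamma targets 3 were higher, Tap1 (0.31), Cd274 (0.52) and Serpina3g (0.42), and 0 lower, where 2.50% of all genes were called higher. Of the 13 autophagy genes 0 were called in either direction by edgeR.

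Kupffer cell markers summed to 373, 397, 402 and 397 CPM in WT livers 1 to 4 and to 454, 456, 373 and 500 CPM in ERRα3SA livers 1 to 4. All 9 markers had a log2 fold change above 0, where the median over all genes was 0.000. Where 2.50% of all genes were called higher, 1 of the 9 markers was, Vsig4. Clec4f was the most abundant of them, and no marker of the list was at or under 3 counts. Of the 6 markers of monocytes and dendritic cells, led by Ccr2, 1 was called higher, Ly6c2, and their sum was 4.09, 3.77, 3.77 and 4.28 CPM in WT livers and 5.51, 3.97, 4.46 and 5.68 CPM in ERRα3SA livers. T and NK cell markers, led by Cd4, summed to 4.42 to 6.29 CPM in WT and 4.26 to 7.56 CPM in ERRα3SA livers, with Prf1 in WT and Ncr1 in ERRα3SA livers at or under 3 counts. The part of these cells in the GTPase values was not tested.

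In muscle 2 of 10 GTPases were lower in ERRα3SA and 0 higher, where 1.75% of the 14081 genes tested were called lower. Gbp6 had 5.55, 8.93, 6.45 and 7.49 CPM in WT muscles 1 to 4 and 5.29, 4.36, 3.17 and 3.45 CPM in ERRα3SA muscles 1 to 4. Igtp had 9.21, 9.45, 8.91 and 9.71 CPM in WT muscles and 7.03, 7.53, 7.09 and 8.28 CPM in ERRα3SA muscles. For both genes all ERRα3SA muscles were below all WT muscles, 2 of 10 genes where 2.78% of all genes tested lay apart in that direction. Gbp6 fell by 0.78 ± 0.22 (edgeR quasi-likelihood test, Benjamini-Hochberg adjusted p = 0.786) on the log2 scale. Igtp fell by 0.29 ± 0.13 (adjusted p = 1.000 by the same edgeR test). No gene of the 10 passed with adjusted p under 0.05, 0% of all genes did by edgeR, and DESeq2 called 2 by the unadjusted rule and 0 by the adjusted one.

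Without ERRα3SA muscle 1, the library rich in mitochondrial counts, Gbp6 fell by 0.92 on the log2 scale (edgeR quasi-likelihood test, Benjamini-Hochberg adjusted p = 0.0395, where the alternatives for this value ranged from 0.0395 to 1.000). The background rose in that fit as well, to 3.23% of all 14363 genes tested with adjusted p under 0.05, and to 7.10% called lower and 10.3% called higher, so the pass is not particular to Gbp6. Igtp then had a log2 fold change of -0.25 and missed the fold change of 1.2, which left 1 call. Without ERRα3SA muscle 4, the library rich in macrophage markers, Gbp6 fell by 0.72 and Igtp fell by 0.35. The call of Igtp was also lost, leaving 1, without WT muscle 1, 2, 3 or 4 (-0.29, -0.27, -0.30 and -0.27) and without ERRα3SA muscle 2 or 3 (-0.28 and -0.25). It was lost as well with DESeq2's size factors (-0.28), with no filter (-0.30), with the replicate number as a block (-0.29) and with liver and muscle in 1 fit (-0.31).

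The other 8 genes were not called in muscle, with log2 fold changes of -0.36 for Tgtp1, -0.10 for Gbp7 and Iigp1, -0.09 for Irgm2, 0.07 for Irgm1, 0.09 for Gbp9, 0.13 for Gbp2 and 0.23 for Gbp3. Irgm1 had 13.9, 13.2, 13.8 and 14.1 CPM in WT muscles 1 to 4 and 16.8, 13.5, 12.8 and 13.7 CPM in ERRα3SA muscles 1 to 4. Gbp2 had 8.97, 7.75, 6.98 and 8.72 CPM in WT and 15.4, 7.50, 5.73 and 6.43 CPM in ERRα3SA muscles. ERRα3SA muscle 1 was the highest muscle for both genes, and for Gbp3 (9.0), Gbp7 (18.6), Gbp9 (12.8) and Iigp1 (12.8 CPM). With all muscles 4 of the 10 genes were above 0 and 6 below, with a median of -0.09 against 0.023 over all genes. Without ERRα3SA muscle 1 all 10 were below 0, with a median of -0.26 against 0.023 over all genes, though some by little, as Irgm1 (-0.01), Gbp9 (-0.05), Irgm2 (-0.06) and Gbp3 (0.00 after rounding). Tgtp1 (-0.45), Iigp1 (-0.37), Gbp7 (-0.33) and Gbp2 (-0.27) were then lower than with all muscles, and none of these 8 was called.

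In muscle 2 of 14 tested further family genes were higher in ERRα3SA, Irgq (0.29) and 9930111J21Rik1 (0.82), and 0 lower, where 2.78% of all genes were called higher. That count was 0 without WT muscle 3, WT muscle 4 or ERRα3SA muscle 4 and 1 without WT muscle 2 or ERRα3SA muscle 2, by edgeR. Without ERRα3SA muscle 1 it was 3, with 1 higher and 2 lower, in the fit whose background was 10.3% higher and 7.10% lower. No filter gave 0, and the replicate number as a block and liver and muscle in 1 fit gave 1 each. Of 15 signalling genes 0 were called by edgeR, and of 12 targets 1 was higher, Psmb8 of the immunoproteasome (0.89). The Kupffer cell list, which in muscle stands for macrophages and is led by C1qa in WT and C1qb in ERRα3SA muscles, summed to 32.3, 34.0, 35.3 and 41.6 CPM in WT muscles and to 24.7, 37.1, 36.6 and 125 CPM in ERRα3SA muscles. Clec4f was at or under 3 counts in all muscles, and Cd5l and Marco in WT muscles. Ccr2, of the monocyte list, was called higher in ERRα3SA muscles (1.46), where the list summed to 8.78, 6.97, 6.73 and 34.5 CPM against 6.68 to 8.80 CPM in WT muscles. The part of these cells in the GTPase values was not tested in muscle.

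Whether ERRα3SA acted differently in the 2 tissues was tested by the effect in muscle minus that in liver. All 10 differences were below 0, from -1.77 to -0.39, and 5 of 10 were called, where 2.41% of the 15688 genes tested were called in that direction. The median was -0.58 over the GTPases and 0.003 over all genes. Gbp6 differed most, by -1.77 ± 0.33 (edgeR quasi-likelihood test, Benjamini-Hochberg adjusted p = 0.174). The regulators Igtp (-0.93 ± 0.27), Irgm2 (-0.49 ± 0.18) and Irgm1 (-0.48 ± 0.19) and the effector Tgtp1 (-1.26 ± 0.56) were called too. Not called were Gbp3 (-0.96), Gbp7 (-0.61), Iigp1 (-0.55), Gbp9 (-0.42) and Gbp2 (-0.39). No GTPase and 0% of all genes passed with adjusted p under 0.05 by edgeR, while DESeq2 called 5 of the 10 by the unadjusted rule and 1 with adjusted p under 0.05, where 0.172% of all genes passed. Whether a liver and a muscle with 1 number came from 1 mouse is not stated. With each such pair taken as 1 mouse 6 of 10 were called, Gbp3 (-0.84) among them, and 0 passed with adjusted p under 0.05 by edgeR.

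Without ERRα3SA muscle 1 the difference between tissues was called for 9 of 10 genes, all but Gbp2, and that of Gbp6 was -1.91 (edgeR quasi-likelihood test, Benjamini-Hochberg adjusted p = 0.0130, with 0.000615 to 0.572 over its alternatives). In that fit 8.73% of all 16019 genes tested were called below 0 and 8.53% above, and 2.30% passed with adjusted p under 0.05, so the background rose too. The count was 3 without WT liver 2, ERRα3SA liver 2 or WT muscle 4. Irgm1 was not called without WT liver 2, ERRα3SA liver 2 or WT muscle 3 or 4 (-0.39, -0.42, -0.44 and -0.43), and Irgm2 without ERRα3SA liver 4 or WT muscle 4 (-0.40 and -0.38). Tgtp1 was not called without any 1 of 8 samples, WT liver 2 or 4, ERRα3SA liver 1, 2 or 4, WT muscle 1 or ERRα3SA muscle 3 or 4, with differences from -1.24 to -0.74. Gbp3 was called without WT liver 3 (-1.17), ERRα3SA liver 4 (-1.18) or WT muscle 2 (-1.13), and Gbp7 without WT liver 3 (-0.81). Of the other lists, 2 of 19 further family genes, Gbp10 (-1.48) and Gvin1 (-1.32), were called below 0 and 0 above, and 0 of 15 signalling genes by edgeR. Among 15 targets, Cxcl9 (-1.39) was called below 0 and Cxcl10 (2.01) above 0, where 3.16% of all genes were called above 0.

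**Figure D5:**
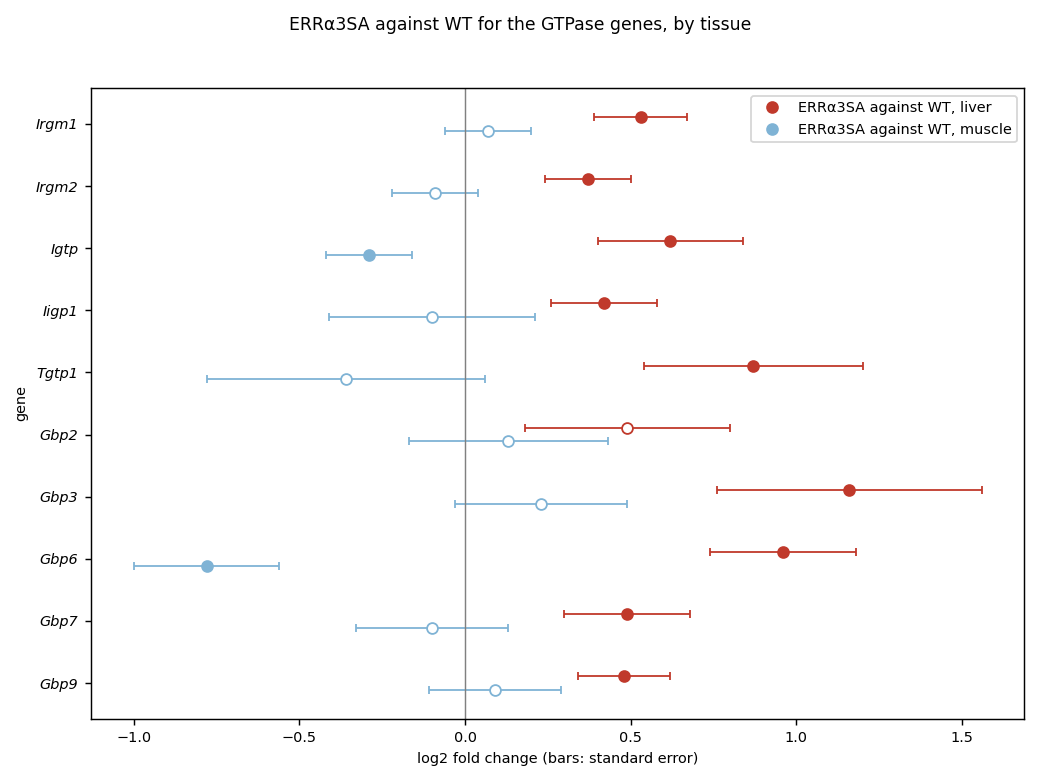
Log2 fold change of ERRα3SA against WT for the 10 GTPase genes in liver (n = 4 and 4) and muscle (n = 4 and 4); bars are standard errors, filled points passed the test and open points did not. Values run from 0.37 to 1.16 in liver and from -0.78 to 0.23 in muscle.

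How far the genes varied together within groups was described by correlation, with no other gene pairs as a background. With each gene centred on its group means, the median Pearson r of log2 CPM was 0.42 over the 36 pairs of the 9 genes in the 15 livers of the insulin experiment (from -0.13 to 0.83). It was 0.74 over 45 pairs in the 8 livers of the ERRα3SA experiment (from 0.27 to 0.98), and 0.40 over 45 pairs in the 8 muscles (from -0.52 to 0.95). In the insulin experiment the 3 regulators, Iigp1 and Gbp7 made the closest pairs, with r = 0.83 for Irgm2 with Igtp, 0.82 for Irgm1 with Gbp7 and 0.78 for Irgm1 with Iigp1. Iigp1 was loosest with Gbp2 (-0.13) and with Tgtp1 (-0.09). In the livers of the ERRα3SA experiment Irgm1 with Iigp1 reached 0.98, and Igtp with Gbp7 and Gbp3 with Gbp6 each 0.95. In muscle the pairs ran both ways. Irgm1 with Gbp2 was at 0.95, where ERRα3SA muscle 1 is high for both, while Igtp with Gbp9 was at -0.52, Igtp with Gbp3 at -0.45 and Irgm2 with Gbp6 at -0.43. All values of a library share its depth, and these are descriptions over few samples.

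Among 13608 genes tested in both experiments, those outside the list most like the mean of the GTPases included Cmpk2 (r = 0.81 over 15 livers and 0.93 over 8 livers), Ifit1 (0.78 and 0.85), Ube2l6 (0.78 and 0.77), Apol9b (0.76 and 0.83) and Ifih1 (0.79 and 0.75). The measure was Pearson's r of log2 CPM centred on group means, ranked by the smaller of both values.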

How the data were processed

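RNA-seq counts per gene of 31 samples were analysed. Counts came as the authors deposited them, without normalization, from STAR alignment of paired-end reads to mm10; the strand setting is not stated. The members, the gene lists and the markers were chosen with earlier results of these data known. Each comparison was fitted on its own groups over all genes that filterByExpr kept, with TMM factors and the quasi-likelihood F test of edgeR 4.0.16 (R 4.3.3), and its p-values were adjusted by Benjamini-Hochberg; the code was tested on simulated data. DESeq2 1.42.0 was the alternative test. Log2 CPM used a prior count of 2. Standard errors given with edgeR values were derived as the absolute log2 fold change divided by the square root of the F statistic. Named are all listed genes and Esrra, further family genes that were called, up to 4 called genes of each other list by smallest p, called markers (not for muscle against liver), and genes from the 6 most like the GTPases; some genes that these rules name, and a marker list, are left out. Alternatives were the test, the size factors, no filter, all groups in 1 fit, the replicate number as a block, adjusted p, the gene length and each sample left out.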

Additional observations from a re-analysis of the deposited data

Results flagged for a closer look

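In 67 sets of a gene and a group of 4 samples, 4 held a sample far from the other 3, where chance flags about 1 in 20 groups. Irgm1 was at 39.6 CPM in ERRα-/- saline 1 against 34.1 to 34.8 in the other 3. Gbp2 was at 6.38 CPM in WT saline 4 against 2.41 to 2.75. Gbp3 was at 5.44 CPM in ERRα-/- saline 3 against 2.10 to 2.62, and at 9.0 CPM in ERRα3SA muscle 1 against 4.99 to 5.49.

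The effect of ERRα3SA differed between muscle and liver for 5 genes at an unadjusted p under 0.05 in edgeR's quasi-likelihood test of the difference itself: Gbp6 (-1.77 on the log2 scale), Igtp (-0.93), Irgm2 (-0.49), Irgm1 (-0.48) and Tgtp1 (-1.26). Their Benjamini-Hochberg adjusted p-values by edgeR were 0.174 to 0.867.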

How the results depend on the processing

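Of 416 log2 fold changes recomputed with all samples kept, 395 kept direction and side of the threshold, 11 lost and 6 gained a call, and 4 changed sign. Those 4 arose with the replicate number as a block: 0.24 for Gbp3 under insulin in ERRα-/- livers, 0.02 for Igtp between genotypes with saline, 0.04 for Irgm2 between genotypes with insulin, and 0.04 for Gbp3 in the genotype by insulin interaction. With that block 1 GTPase was called between genotypes with insulin and 1 in ERRα3SA muscle, 6 for insulin in WT (Irgm2 and Igtp gained), 6 for insulin in ERRα-/- livers (Gbp2 lost) and 10 in ERRα3SA liver (Gbp2 gained). In deviations from group means, same-numbered samples correlated by -0.181 to 0.241, some above and some below the highest value for pairs with other numbers, so whether the number marks pairs is open. Taking liver and muscle of 1 number as 1 mouse gave 6 in ERRα3SA by tissue.

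By adjusted p under 0.05 in edgeR the GTPases called were 0 for insulin in WT, 3 for insulin in ERRα-/- livers, and 0 in the genotype comparisons, in ERRα3SA liver and muscle and in their difference. With all groups in 1 fit the first counts became 2 and 0, and with the block 2 and 3. By the unadjusted rule the counts were 4, 7, 2, 2, 9, 2 and 5, and DESeq2 gave 4, 7, 2, 2, 9, 2 and 5. All groups in 1 fit gave 1 between genotypes with saline and 1 in ERRα3SA muscle, where DESeq2's size factors and no filter gave 1 each. The cause was not tested.

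With each sample left out in turn, GTPases called were 1 to 3 (genotypes, saline), 0 to 2 (genotypes, insulin), 0 to 1 (interaction, 1 without WT insulin 4), 4 to 10 (ERRα3SA liver), 1 to 2 (ERRα3SA muscle) and 3 to 9 (ERRα3SA by tissue). Log2 fold changes that changed sign in some of these fits had these ranges. Insulin, WT: Gbp3 -0.16 to 0.27. Insulin, ERRα-/-: Tgtp1 -1.33 to 0.09, Gbp3 -0.42 to 0.28. Genotypes, saline: Igtp -0.30 to 0.14, Gbp2 -0.17 to 0.52. Genotypes, insulin: Irgm1 -0.26 to 0.03, Irgm2 -0.46 to 0.04, Tgtp1 -1.06 to 0.36, Gbp9 -0.13 to 0.20. Interaction: Irgm2 -0.17 to 0.33, Iigp1 -0.22 to 0.08, Gbp3 -0.47 to 0.23, Gbp9 -0.01 to 0.35. ERRα3SA muscle: Irgm1 -0.01 to 0.13, Iigp1 -0.37 to 0.08, Tgtp1 -0.58 to 0.17, Gbp2 -0.27 to 0.30, Gbp3 0.00 to 0.34, Gbp7 -0.33 to 0.06, Gbp9 -0.05 to 0.20. None of these had passed the test with all samples.

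Counts of further family genes moved by over 1.5 times as well: between genotypes with saline from 2 to 1 without ERRα-/- saline 1 or 4 or WT saline 3, and with insulin from 0 to 1 without WT insulin 2 or 3. In the interaction 1 became 2 without ERRα-/- saline 2, ERRα-/- insulin 1 or WT insulin 1, 2 or 3, and 3 without ERRα-/- insulin 4. In ERRα3SA by tissue 2 became 4 without ERRα3SA muscle 1, 0 without ERRα3SA liver 1 or 2 or ERRα3SA muscle 4, and 1 without WT liver 1, 2 or 4, ERRα3SA liver 4, WT muscle 1, 2 or 3 or ERRα3SA muscle 3. Depth limits Tgtp1 most, with as few as 8 counts in a liver.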

Other observations

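Markers of other cells, read for the same comparisons, gave calls outside the immune lists. In ERRα3SA livers 3 of 4 cholangiocyte markers were lower, Krt19 (log2 fold change -1.14), Epcam (-0.93) and Krt7 (-1.11), where 2.38% of all genes were called lower. Sox9, the most abundant of the 4, was not called. Its mean went the other way, with 7.07 CPM in WT and 9.15 CPM in ERRα3SA livers. The sums of the 4 overlapped, at 9.83 to 14.5 CPM in WT and 8.78 to 14.4 CPM in ERRα3SA livers. Lrat, a marker of stellate cells, was higher in ERRα3SA livers (0.33). After insulin the muscle marker Acta1 was higher in WT livers (5.15), where WT insulin 3 is rich in muscle markers, and Cps1 of hepatocytes (0.74) and Pdgfra of fibroblasts (0.43) were higher in ERRα-/- livers. Cd4 was higher in ERRα-/- than in WT livers with saline (1.25) and with insulin (1.75), and Ccr2 with saline (1.53). With saline Kdr (-0.43) and Col1a1 (-0.74) were lower and Pdgfra (0.40) higher in ERRα-/- livers, and with insulin Cps1 (0.95), Marco (1.05), Cdh5 (0.41) and Pdgfra (0.56) were higher and Myh4 (-4.75) lower. Myh4 is a muscle marker, and WT insulin 3, rich in muscle markers, is in the WT group of that comparison. The insulin effect differed between genotypes for Marco (1.62) and Lrat (0.82). In ERRα3SA muscles Ass1 (0.66) and Sox9 (0.80) were higher and Krt19 (-1.18) and Myf5 (-0.50) lower, Myf5 being 1 of 2 satellite cell markers, led by Pax7, with sums of 4.54 to 5.49 CPM in WT and 2.97 to 5.52 CPM in ERRα3SA muscles. The ERRα3SA effect in muscle minus that in liver was called for Ass1 (1.02), Vsig4 (-1.37), Cd209a (-1.18), Cdh5 (-0.36) and Adipoq (-2.22), which is 1 of 4 adipocyte markers, led by Cfd, with sums of 53.7 to 122 CPM in WT and 61.1 to 85.5 CPM in ERRα3SA muscles and at most 2.11 CPM in the livers of that experiment.

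Calls rest on 3 or 4 samples a group and on unadjusted p-values except where an adjusted p is given. Tgtp1, Tgtp2, Gbp6 and Gbp10 share much of their sequence with close relatives or overlapping genes, which leaves their values uncertain. Binding, protein and interferon in blood were not analysed here.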
